A study of Ovis aries with 36 samples.

Results

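The pineal gland was compared with the pars tuberalis within the same 12 adult rams of the Spanish sheep breed Rasa Aragonesa. The comparison used 24 of the 36 libraries of the series, 12 pineal and 12 pars tuberalis libraries, chosen by the tissue and the animal number in the sample titles. Rams 1 to 6 were labelled sexually active and rams 7 to 12 not active (inactive here), so the 24 libraries fell into 4 groups of 6 by tissue and state. The remaining 12 libraries came from the hypothalamus of the same rams and were used for comparison and in alternative fits. No genotype, treatment, season, time of day or dissection limit is given for the rams in the sources used here.

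The pineal gland makes melatonin at night. Its main cells, the pinealocytes, are related to retinal photoreceptors and share part of their gene set. The pars tuberalis wraps around the pituitary stalk. It is rich in melatonin receptors and in sheep relays day length to the hypothalamus and to the rest of the pituitary. The deposited counts carry Ensembl sheep gene IDs without names. A symbol could be found for 0 of 26478 IDs in the gene table at hand. Roles of single genes, marker genes of either organ and sequences are therefore not given, and the tissue labels could not be checked against known markers. In whole tissue, fewer cells of a type and less RNA per cell cannot be told apart.

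Depth, in units of 1000000 counts, was 41.1 ± 14.1 in the pineal gland and 29.0 ± 3.93 in the pars tuberalis (SD, n = 12 each), and the pineal library was the deeper one in 9 of 12 rams. In an exact two-sided sign-flip permutation test over the 12 rams this difference had p = 0.00586, or 0.00820 after Benjamini-Hochberg adjustment over 7 measures per library. Levels below are counts per 1000000 counts of the library after scaling by trimmed mean of M values (CPM).

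One library stood apart. For 11018 genes with a mean of at least 10 CPM, the pars tuberalis library of inactive ram 7 lay at a median absolute distance of 0.549 log2 units from the median of its tissue. The pineal libraries lay at 0.104 to 0.235, and the other 11 pars tuberalis libraries at 0.0920 to 0.235. In the library of ram 7, 519 genes were more than 1 log2 unit above and 320 more than 1 log2 unit below all other pars tuberalis libraries. Above and below together, such genes numbered 5 to 81 in a pineal library and 1 to 59 in the other pars tuberalis libraries. The second principal component, with 4.92% of the variance, put it at -78.1, where the pineal libraries ran from -30.3 to 25.9 and the other pars tuberalis libraries from -24.1 to 20.8. The pineal library of ram 7 lay at 0.142 and its hypothalamus library at 0.172 on the distance measure, both within the range of their tissues (0.104 to 0.235 and 0.128 to 0.365). Genes high in the hypothalamus, 35 IDs defined from these libraries, stood in that library at a median of 0.462% of their hypothalamic level, within the 0.180% to 0.723% of the other pars tuberalis libraries. Its depth of 26850131 counts was also within the range of its tissue. What sets this library apart was not tested further, and the main results are given with and without ram 7.

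**Figure D1:**
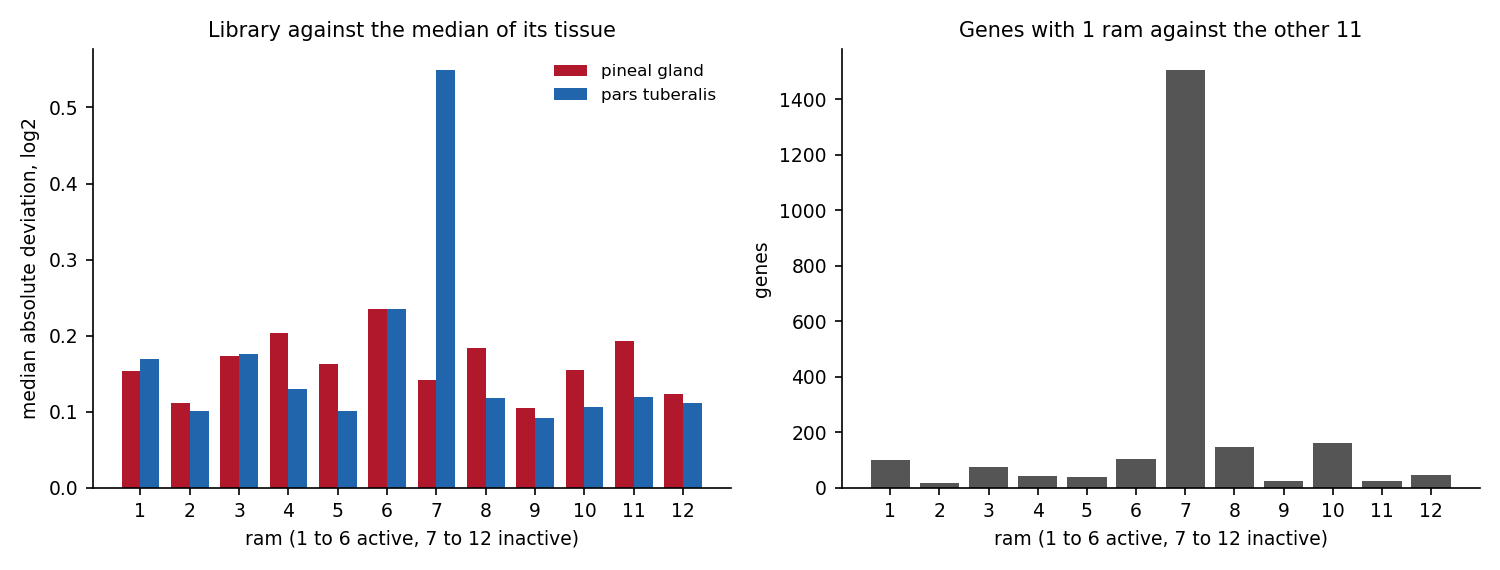
Left, median absolute log2 deviation of each library from the median of its tissue over 11018 genes, with pineal gland bars in red and pars tuberalis bars in blue. Right, number of genes called by tissue, at 10 CPM or more, for which that ram alone went against the other 11 (2288 genes in all). The pars tuberalis library of ram 7 stands at 0.549, and ram 7 is the exception for 1504 genes.

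Most of the measured genes differed between both organs. Of 16399 genes tested with the ram as a block, 12348 (75.3%) passed an adjusted p of 0.05 (Benjamini-Hochberg) in the quasi-likelihood test of edgeR and are the called genes below. The pineal gland was higher in 6207 (37.8%) and lower in 6141 (37.4%). The median log2 difference of the called genes was 1.04 for those higher in the pineal gland and -0.91 for those lower. Over all tested genes it was 0.0011. The scaling itself places typical log2 differences near 0, so this median and the even split of directions are not measured properties of the organs. With scaling by DESeq2 size factors 6170 genes were called higher and 6184 lower. The difference reached 2-fold for 3205 of the genes higher in the pineal gland (51.6%) and for 2828 of those lower (46.1%). It reached 8-fold for 935 and 703, and 32-fold for 337 (5.43%) and 270 (4.4%).

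With a fold minimum of 2 built into the test, 4695 genes (28.6%) were called, 2494 higher (15.2%) and 2201 lower (13.4%) in the pineal gland. All 12 pineal libraries lay above all 12 pars tuberalis libraries for 2567 genes (15.7%) and below them for 2301 (14%), and each of these genes was among those called. Without ram 7 the counts were 6551 higher (39.8%) and 6576 lower (39.9%) of 16461 tested, 4934 past the fold minimum, and 3023 and 2881 with the libraries apart. Of the genes called with all rams, 12194 were also called without ram 7, 154 were not, and 0 had the opposite sign.

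For 4051 genes (24.7%) no difference was called, and for 3637 of these (89.8%) the 95% interval of the log2 difference lay within 2-fold in both directions. Without ram 7 this held for 2917 of 3334 uncalled genes (87.5%). With all rams the same held for 4702 of the called genes (38.1%), so a call often stood for a difference smaller than 2-fold. In all, 8339 genes (50.9%) were bounded within 2-fold between the organs.

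Calls were spread evenly over the level scale, and large differences were not. For this, 5 classes of equal size were set by the mean log2 CPM over the 24 libraries. They ran from 0.130 to 2.38 CPM in the lowest to 70.1 to 4038 CPM in the highest. Between 73.4% and 77% of a class was called. The share past a fold minimum of 2 was 45.5%, 36.6%, 23.8%, 16.2% and 21% from the lowest class to the highest. A level near 0 in 1 organ lowers the mean that sets the class, and its part in these shares was not tested. The median size of the difference was 1.35 log2 units in the lowest class and 0.486 in the highest, while its median standard error (SE) was 0.288 and 0.0856. In the highest class more genes of at least 2-fold were higher in the pineal gland (490) than lower (352), and in the lowest the numbers were close (989 and 983).

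**Figure D2:**
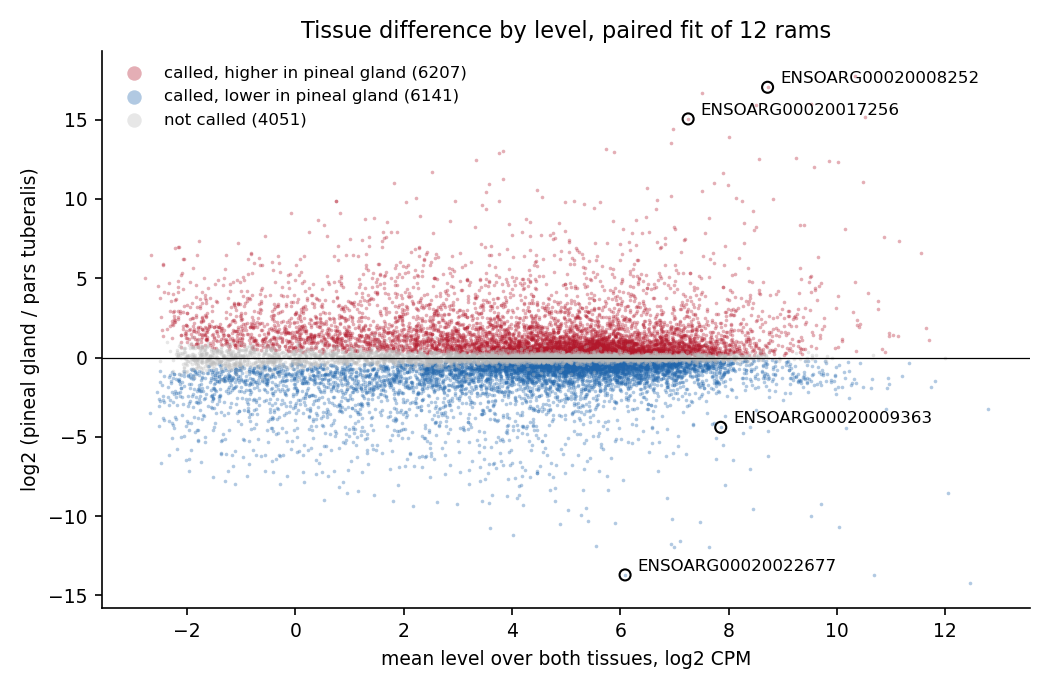
Each point is 1 of 16399 tested genes. The horizontal axis is the log2 of its mean CPM over both tissues. The vertical axis is the fitted log2 ratio of pineal gland over pars tuberalis. Red points were called higher (6207) and blue points lower (6141) in the pineal gland, gray points were not called (4051), and circles mark the 4 IDs described by name.

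The direction of a difference was shared by nearly all rams. Of 9024 called genes at 10 CPM or more in the higher tissue, 5704 (63.2%) had the same direction in all 12 rams, 2288 (25.4%) in 11, 735 (8.14%) in 10, 239 (2.65%) in 9 and 58 (0.643%) in 8 or fewer. Among the 2288 genes with a single exception, that exception was ram 7 for 1504 (65.7%). The next rams were 10 with 163, 8 with 147, 6 with 103 and 1 with 100, and each other ram was the exception for 19 to 74 genes. Of the 1504 genes, 657 were higher and 847 lower in the pineal gland of the other 11 rams. Counted over those 11 rams alone, 7208 of the 9024 genes (79.9%) had 1 direction throughout. These counts describe genes already called in the same libraries.

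The 4 IDs described by name here are the 2 in each direction with the lowest p among called genes at 10 CPM or more in the higher tissue with 1 direction in 12 rams. ENSOARG00020008252 stood between 518 and 1506 CPM in the pineal gland, with a median of 794. In the pars tuberalis it had 1 count in all, in ram 11, and 0 in the other 11 libraries. The pooled ratio of pineal gland over pars tuberalis was 323000, with a 95% counting interval of 57900 to 12700000. The pineal level was highest in active ram 1 and next highest in inactive ram 12, at 1009 CPM, and lowest in inactive ram 10.

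ENSOARG00020017256 ran from 200.3 to 395 CPM in the pineal gland, with a median of 303, and had 2 counts in the pars tuberalis, 1 each in rams 1 and 5. Its pooled ratio was 57900 (95% counting interval 16000 to 478000). The pineal mean was 305 ± 69.8 CPM (SD, n = 12), and active and inactive rams overlapped. Both IDs had hypothalamic levels of 0.13 CPM or less, on a scale set over all 36 libraries.

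ENSOARG00020022677 had 3 counts in the pineal gland, 1 each in rams 6 and 12 and 1 in ram 5. In the pars tuberalis it ran from 32.2 to 325 CPM with a median of 142, and 136 ± 87.4 CPM on average (SD, n = 12). The pooled ratio of pars tuberalis over pineal gland was 21600 (95% counting interval 7390 to 105000). The lowest pars tuberalis levels were those of active rams 3 and 1 (32.2 and 37.3 CPM) and the highest that of inactive ram 10, and all lay above every pineal library. In the hypothalamus, on the scale set over all 36 libraries, its median was 0.261 CPM. Ram 4 had 233 CPM there (7268 counts), and ram 3 had 8.67 CPM. The pars tuberalis of ram 4 had 204 CPM on the scale of the 24 libraries (7410 counts).

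ENSOARG00020009363 differed by less and was present in both organs. It ran from 15.9 to 25.5 CPM in the pineal gland (median 21.1) and from 284 to 546 CPM in the pars tuberalis (median 446). The mean was 20.7 ± 2.45 CPM in the pineal gland and 442 ± 80.0 CPM in the pars tuberalis (SD, n = 12 each). The fitted log2 difference was -4.40 (SE 0.088), and single rams lay between -4.81 and -4.08. On the scale of all 36 libraries the hypothalamus held it at a median of 21.6 CPM, close to the pineal level, with 75.5 CPM in ram 4.

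In the quasi-likelihood test of edgeR, adjusted p was 8.33e-17 for ENSOARG00020008252 and 4.65e-16 for ENSOARG00020017256. It was 1.59e-15 for ENSOARG00020022677 and 1.24e-14 for ENSOARG00020009363. Fitted log2 differences of the 3 IDs with 1 to 3 counts in the lower tissue (17.04, 15.05 and -13.71) depend on the prior count of the fit. Without ram 7 the 4 log2 differences were 17.00, 14.97, -13.56 and -4.38. Genes this close to absent in an organ were rare. With every library of the higher tissue at 10 CPM or more, 10 IDs had at most 3 counts in all 12 pars tuberalis libraries, 3 of them with 0. In the other direction 1 ID had at most 3 counts in all pineal libraries, and it had more than 0.

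**Figure D3:**
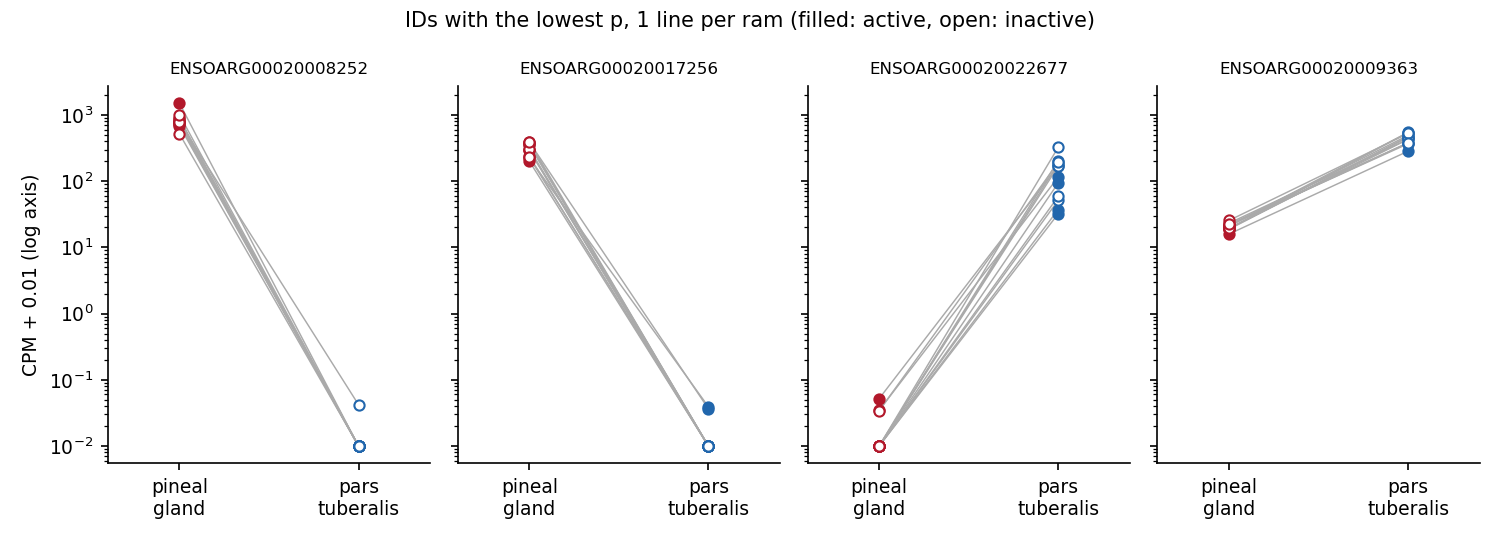
CPM plus 0.01 on a log axis for the 4 IDs with the lowest p, with the pineal gland on the left, the pars tuberalis on the right and 1 line per ram. Filled circles are active and open circles inactive rams. All 12 lines of an ID run the same way, and the lines of ENSOARG00020009363 are nearly parallel.

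The pars tuberalis gave a larger part of its counts to a few genes. The most abundant ID of a library held 0.633 ± 0.0984% of counts in the pineal gland and 1.73 ± 0.973% in the pars tuberalis (SD, n = 12 each), with the pineal share lower in 12 of 12 rams. The 10 most abundant IDs of each library held 4.12 ± 0.385% in the pineal gland and 6.52 ± 1.53% in the pars tuberalis, again lower in 12 of 12 rams. Both differences had an exact two-sided sign-flip permutation p of 0.000488, the smallest that 12 pairs can give, and an adjusted p of 0.00171. Without ram 7 the mean differences were -1.11 and -2.43 percentage points. The share of the 100 most abundant IDs was 16.6 ± 0.942% in the pineal gland and 18.9 ± 1.78% in the pars tuberalis, lower in the pineal gland of 10 rams (exact permutation p = 0.00391, adjusted p = 0.00820).

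Further down the scale no difference was detected. The number of IDs that together held 50% of the counts was 1143 ± 76.2 in the pineal gland and 1180 ± 124 in the pars tuberalis (mean difference -37.3, SD of the difference 143, exact permutation p = 0.386, adjusted p = 0.438). The difference was -64.5 without ram 7, with an unadjusted exact permutation p of 0.0918, but -14.4 without ram 8 and -20.5 without ram 12. Thinned by calculation to a common depth of 22556623 counts, the pineal gland had 18182 ± 71.3 IDs with at least 1 count and the pars tuberalis 18149 ± 123 (mean difference 33.1, SD of the difference 138, exact permutation p = 0.438, adjusted p = 0.438). This difference was 5.73 without ram 4, 20.3 without ram 10 and 54.7 without ram 12. A p of this size does not show that the numbers are equal. In active ram 1 the most abundant ID of the pars tuberalis held 4.74% of counts, where the next pars tuberalis library had 1.98%.

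**Figure D4:**
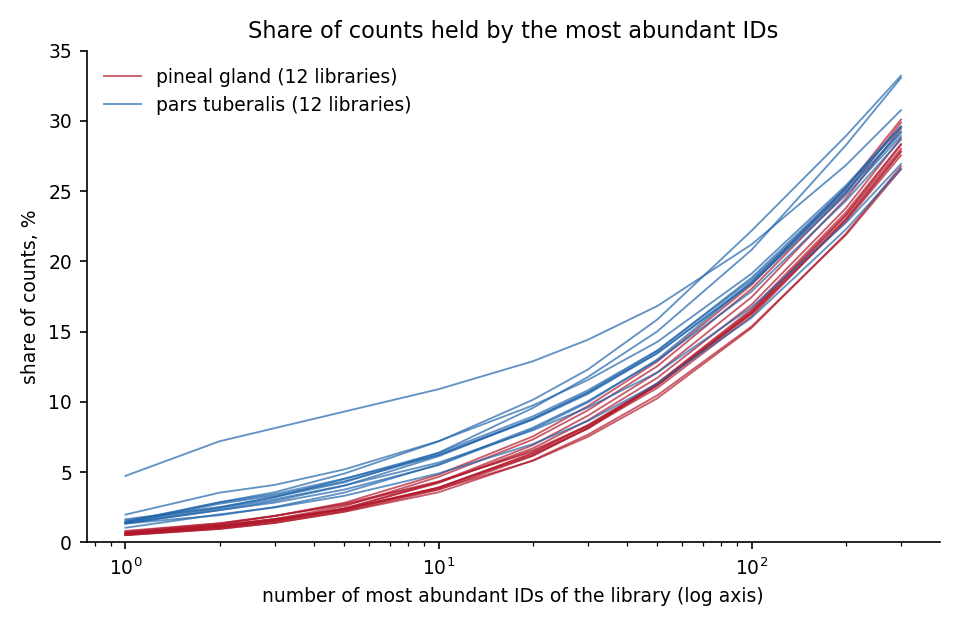
Share of a library's counts in percent held by its most abundant IDs, up to 300 IDs on a log axis, with 1 line per library. Red lines are the 12 pineal libraries and blue lines the 12 pars tuberalis libraries. At 10 IDs the red lines run from 3.57% to 4.84% and the blue lines from 4.91% to 10.9%.

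No gene was found whose difference between the organs depended on sexual state. The term that sets the tissue difference in active rams against that in inactive rams called 0 of 16399 genes (0%) by edgeR's quasi-likelihood test. By the same test 221 (1.35%) had an unadjusted p under 0.05. If the term were 0 for every gene, a share of 0.05 would be expected on average. Why the share was lower was not tested. DESeq2 and limma voom also called 0, with 311 and 274 at an unadjusted p under 0.05, and without ram 7 edgeR called 0 with 324. For 10997 of 16392 genes (67.1%) the 95% interval of this term excluded a 2-fold change of the tissue difference in either direction. Among the 607 genes at least 32-fold apart between the organs, 27 (4.45%) had an unadjusted p under 0.05.

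For the 4 IDs with the lowest p of the state term, 2 in each direction, values are given by state. ENSOARG00020009297 had a log2 difference of pineal gland minus pars tuberalis of 1.81 ± 0.167 in active rams and 0.973 ± 0.323 in inactive rams (SD, n = 6 each). Single active rams lay between 1.62 and 2.06 and single inactive rams between 0.714 and 1.61, so the 2 states met without overlapping. ENSOARG00020022957 had 2.89 ± 0.806 in active and 1.59 ± 0.372 in inactive rams, and the ranges overlapped (1.60 to 3.88 and 1.04 to 2.14). Its pineal level ran from 44.0 to 277 CPM and its pars tuberalis level from 7.89 to 34.4 CPM.

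In the other direction, ENSOARG00020007710 had a tissue difference of 0.712 ± 1.27 in active and 3.00 ± 1.01 in inactive rams. ENSOARG00020026249, which did not exceed 1.04 CPM in any of the 24 libraries, had -0.552 ± 0.874 in active and 1.03 ± 0.579 in inactive rams. The fitted terms of active minus inactive were 0.85 (SE 0.206) and 1.32 (SE 0.329) for ENSOARG00020009297 and ENSOARG00020022957. They were -2.33 (SE 0.663) for ENSOARG00020007710 and -2.13 (SE 0.561) for ENSOARG00020026249. Unadjusted p by edgeR's quasi-likelihood test ran from 0.00113 to 0.00373 for the 4 IDs, and each had an adjusted p of 1.

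Pairing by ram also showed which genes differed from ram to ram in both organs together. A test of the 12 rams within their state on 10 degrees of freedom, added after the data were seen, called 392 of 16399 genes (2.39%) in edgeR at an adjusted p below 0.05. Without ram 7 the same test, on 9 degrees of freedom, called 1369 of 16461 genes (8.32%). The lists shared 379 genes, 96.7% of the shorter list and 27.7% of the longer one. A call by this test does not require that the gene varied in each organ. ENSOARG00020022677, with 3 counts in the pineal gland, was among the 392 (adjusted p = 0.000543 by edgeR's quasi-likelihood test).

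The 392 genes varied widely. Between the highest and the lowest ram, their median range was 2.83 log2 units in the pineal gland and 2.81 in the pars tuberalis, where all tested genes had medians of 1.01 and 1.30. At least 8-fold ranges in both organs occurred for 144 of the 392 genes (36.7%) and for 432 of all 16399 (2.63%). Without ram 7 the 1369 genes called had smaller ranges, with medians of 1.27 in the pineal gland and 1.21 in the pars tuberalis against 0.99 and 0.92 for all genes tested. At least 8-fold ranges in both organs then occurred for 151 of the 1369 (11%) and for 342 of all 16461 (2.08%). These ranges come from the libraries that made the calls. Of the 392 genes, 270 (68.9%) were also called between the organs, against 75.3% of all genes tested.

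The hypothalamus libraries of the same rams had no part in these calls. The ram with the highest mean over the pineal gland and pars tuberalis was also the highest in the hypothalamus for 140 of the 392 genes (35.7%), and for 1895 of all 16399 (11.6%). The lowest ram was the same for 128 (32.7%), and for 1935 of all genes (11.8%). For the 1369 genes called without ram 7 the shares were 24.8% and 27%, and for all 16461 genes 13.7% and 15.5%. Genes of 1 library are not independent, so these shares stand without a test.

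In the longer list the rams did not take part equally. Ram 6 was the lowest of the 11 rams for 438 of the 1369 genes (32%), and for 3099 of all 16461 (18.8%). It was the highest for 277 (20.2%), close to its share of 19.8% over all genes. The libraries of ram 6 had the largest median deviation of their tissue once ram 7 was left out, 0.235 in the pineal gland and 0.235 in the pars tuberalis, and the lowest TMM factors, 0.894 and 0.972. Their part in the count was not tested. The 10 rams other than ram 6 were each the lowest for 45 to 157 genes. In the shorter list the highest ram was ram 7 for 50 of 392 genes and every other ram for 16 to 43. Ram 7 was also the lowest for 50, and every other ram for 20 to 41. For the shorter list the share of each ram over all tested genes was not counted, so these numbers show no excess or lack. Labels give no collection or sequencing date, so rams that shared handling cannot be told from those that did not.

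The 2 IDs with the lowest p of this test, named after their values were seen, had separate levels that repeated in each organ. ENSOARG00020006104 stood at 2.44, 2.34 and 2.12 CPM in the pineal glands of rams 5, 9 and 10, and at 29.8 to 77.7 CPM in those of the other 9 rams. In the pars tuberalis the same 3 rams had 5.32, 4.195 and 6.45 CPM, and the others 73.2 to 170 CPM. In the hypothalamus they had 3.38, 3.59 and 2.42 CPM, and the others 50.05 to 123 CPM. The 3 low rams were of both states, ram 5 active and rams 9 and 10 inactive.

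ENSOARG00020017363 fell into 3 ranges. In the pineal gland, rams 3 and 9 had 0.324 and 0.287 CPM, rams 2, 5, 7 and 12 had 3.07 to 3.599 CPM, and the other 6 rams had 10.6 to 19.8 CPM. In the pars tuberalis, rams 3 and 9 had 0.674 and 0.567 CPM, the same 4 rams had 3.63 to 4.80 CPM, and the other 6 had 13.1 to 26.2 CPM. The hypothalamus kept the same 3 ranges, at 0.377 and 0.389, at 2.96 to 7.26 and at 13.9 to 37.6 CPM. Adjusted p of the ram term was 2.15e-08 for ENSOARG00020006104 and 2.93e-08 for ENSOARG00020017363 by edgeR's quasi-likelihood test.

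Both IDs also differed between the organs. ENSOARG00020006104 was lower in the pineal gland by a log2 difference of -1.20 (SE 0.081), with single rams between -1.61 and -0.83. ENSOARG00020017363 differed by -0.42 (SE 0.088), with single rams between -0.94 and -0.24. Its largest gaps, -0.94 and -0.86, were those of rams 3 and 9, the rams with the lowest levels. Both IDs were lower in the pineal gland of 12 of 12 rams. Adjusted p of the tissue difference was 4.15e-09 and 0.000496 in the same test of edgeR across all genes. Copies of a gene with near-identical sequence could share reads in such counts, and whether these IDs have any is not known here.

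**Figure D5:**
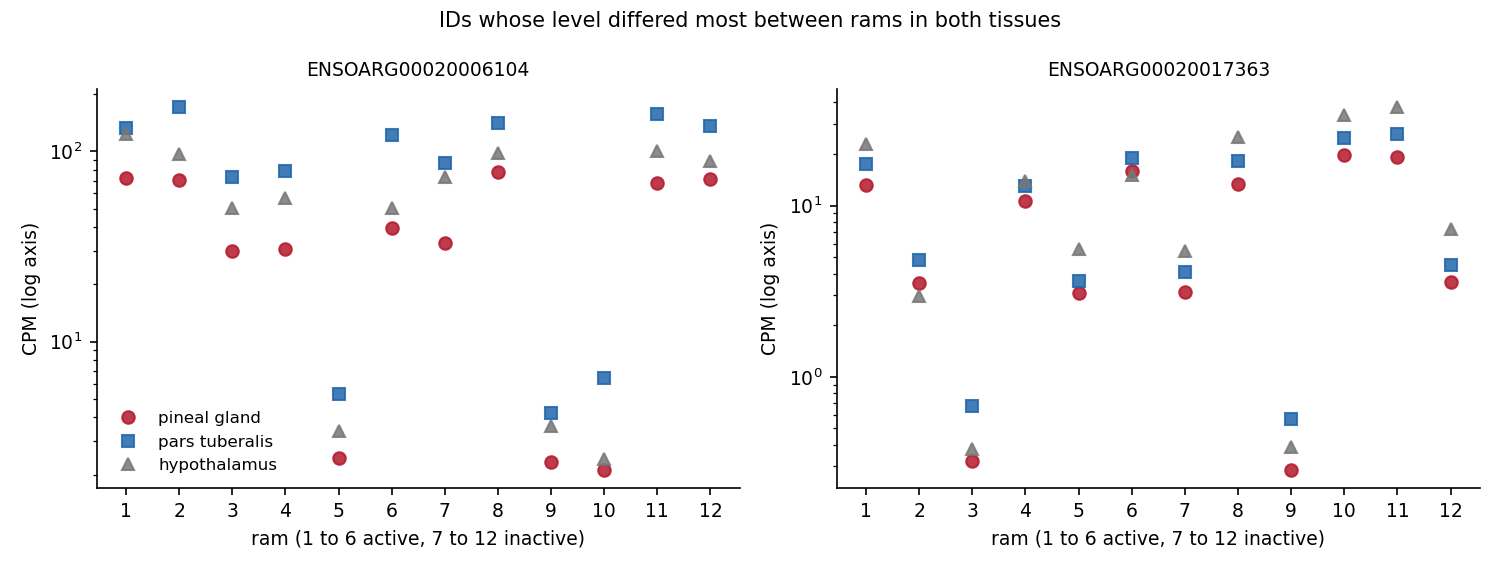
CPM on a log axis by ram for the 2 IDs with the lowest p of the ram term, with red circles for the pineal gland, blue squares for the pars tuberalis and gray triangles for the hypothalamus. Rams 5, 9 and 10 are low in all 3 tissues for ENSOARG00020006104, and rams 3 and 9 for ENSOARG00020017363.

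Which organ varied more among rams depended on whether ram 7 was counted. Over 16399 genes the median SD of log2 CPM among the 12 rams was 0.313 in the pineal gland and 0.371 in the pars tuberalis, and 6241 genes (38.1%) varied more in the pineal gland. Without ram 7 the medians were 0.313 and 0.278, and 9824 genes (59.9%) varied more in the pineal gland. For 9604 genes at 10 CPM or more in both organs, 3290 (34.3%) varied more in the pineal gland with all rams and 6083 (63.3%) without ram 7. No test was made of this, since the genes of a library are not independent.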

How the data were processed

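Messenger RNA of the pineal gland and pars tuberalis of 12 rams was sequenced as stranded libraries, per the labels' protocols. The authors deposited raw counts per Ensembl gene ID, with no normalisation. FastQC, STAR 2.7.8a, HTSeq and edgeR are named in the submitters' processing notes without a role. Not given in the sources used here: genome build, annotation, strand setting of the counting, handling of reads with several matches and use of the molecular identifiers. Overlapping genes and near-identical copies are therefore uncertain, and counting intervals cover counting error only.

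The tools were R 4.3.3, edgeR 4.0.16, limma 3.58.1 and DESeq2 1.42.0. The filter of edgeR (minimum count 10, 4 groups) kept 16399 of 26478 IDs, and 4197 IDs had no count in the 24 libraries. The fit had TMM scaling, robust spread, 1 term per ram and 1 for tissue (11 residual degrees of freedom), tested by quasi-likelihood F tests with Benjamini-Hochberg adjustment. The state term was added to it as active minus inactive of pineal gland minus pars tuberalis (10 residual degrees of freedom). SE is the absolute log2 difference over the square root of F. Per-ram log2 values used a prior count of 2. Scripts were tested on simulated data.

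The titles give both libraries of a ram the same number, which pairs them. Over 11018 genes, deviations from the group mean correlated within a ram at -0.345 to 0.479 (median 0.217), against a median of -0.0193 between rams of the same state. The lowest value was that of ram 7, followed by ram 8 at -0.0535 and ram 5 at 0.0914. Without ram 7 the range was 0.0914 to 0.479. With all rams, 9 of the 12 own pairs were over 0.1. For 8 rams the pineal library was closest to its own pars tuberalis among rams of its state. Among 60 library pairs within groups chi-square per degree of freedom was at least 36.4, so no library was a copy of another of its group. That replicates are different rams rests on the titles, since these numbers cannot show it.

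Named IDs were, for the tissue difference, the 2 per direction with the lowest p among called genes at 10 CPM or more with 1 direction in 12 rams, and for the state term the 2 per direction with the lowest p. Members, lists and tests were chosen with earlier results of these data known, and the ram term was added after the data were seen. The 15 lists of gene symbols drawn up for named genes could not be used, because 0 IDs matched a symbol. Alternatives were other scaling, filtering, tests, pairing, library sets and leaving out each ram.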

Additional observations from a re-analysis of the deposited data

Results flagged for a closer look

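In 72 sets of 6 libraries, 1 sample lay far from the other 5 in 10 sets. Chance alone marks about 1 in 20 independent sets. These sets share libraries and include IDs picked for their low p, so 10 of 72 cannot be set against that rate. In active rams, the pineal level of ENSOARG00020008252 was 1506 CPM in ram 1 (next 808 CPM). In the pars tuberalis of ram 1 the most abundant ID held 4.74% of counts (next 1.65%) and the 10 most abundant held 10.9% (next 7.19%), and ENSOARG00020026249 stood at 1.04 CPM (next 0.386 CPM). In the pars tuberalis of ram 6 the TMM factor was 0.972 (next 1.04) and 985 IDs held 50% of the counts (next 1177).

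In inactive rams, the TMM factor of the pars tuberalis of ram 7 was 0.874 (next 1.04), and ENSOARG00020026249 stood there at 0.384 CPM (next 0.113 CPM). Single counts made up 2 further cases, ENSOARG00020022677 at 0.0242 CPM in the pineal gland of ram 12 and ENSOARG00020008252 at 0.0321 CPM in the pars tuberalis of ram 11, with 0 in the other 5 rams of each set. Their causes were not tested.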

How the results depend on the processing

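The count of 12348 genes called between the organs stayed within 1.5 times under 23 alternatives, from 8841 in inactive rams alone to 13181 without a filter on low counts. It was 11088 in active rams alone, and 12021 to 13127 with 1 ram left out, the 13127 without ram 7. The inactive set holds the pars tuberalis library of ram 7 that stood apart, so 8841 and 11088 do not compare the states. Without the animal as a block 11997 genes were called, and 4590 in place of 4695 past the fold minimum of 2. Of the 11997, 11839 were also called with the block. The 4 IDs named for the tissue difference stayed called and the 4 named for the state term uncalled without the pairing. The measures per library and the ram term were not run unpaired. A fold minimum of 1.5 in the test gave 7140 genes and one of 4 gave 2144, by construction. With 1 ram left out that count ran from 4606 to 4934. The state term called 0 genes under 20 alternatives. The ram term called 282 to 1369 genes with 1 ram left out, the 1369 without ram 7, and 381 to 468 under the other 3 alternatives. Genes that varied more in the pineal gland numbered 9824 without ram 7. The difference in detected IDs was -75.8 when 10 counts were required in place of 1 (exact sign-flip permutation, adjusted p = 0.239), which turns its direction. The 8 IDs named for the tissue difference and the state term kept their direction and their side of the threshold under their 23 and 20 alternatives, and the 2 named for the ram term stayed called under 15. Pineal libraries were deeper, so IDs near 0 were bounded more tightly there than in the pars tuberalis.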

Other observations

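Genes set far apart between the organs were rarely at 0 in the lower one. Of 224 IDs at least 32-fold higher in the pineal gland at 10 CPM or more, 5 had no count in any pars tuberalis library. Of 157 IDs at least 32-fold lower, 0 had no count in any pineal library. At the same level a count of 0 is less likely in the deeper pineal libraries. The 224 IDs summed to 65237 to 83360 CPM in the pineal libraries and to 412 to 902 CPM in the pars tuberalis libraries. The highest of these pars tuberalis sums was that of ram 7, where 51 of the 224 IDs (22.8%) also had their highest pars tuberalis level, followed by ram 1 with 42 (18.8%).

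The 157 IDs summed to 126 to 751 CPM in the pineal libraries (median 177) and to 28594 to 88236 CPM in the pars tuberalis libraries (median 39155). In the pineal gland the sums stood out in active ram 4 at 751 CPM, inactive ram 10 at 419 CPM and active ram 6 at 355 CPM, while each of the other 9 rams had 202 CPM or less. The pineal library of ram 10 held the highest pineal level of 56 of the 157 IDs (35.7%). It also held the 35 hypothalamus IDs at a median of 8.91% of their hypothalamic level, where the other pineal libraries had 1.54% or less. In ram 4, with the larger sum, 19 of the 157 IDs (12.1%) were at their highest. The IDs were chosen by their difference in these same libraries, so the values are a description, and the part of other tissue in these libraries was not tested.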
